A study of Homo sapiens with 16 samples.

Results

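HaCaT keratinocytes, a spontaneously immortalised line of human skin epithelium, were depleted of YAP1 by RNA interference and profiled by RNA-seq. The 4 libraries described here are the 3 labelled siYAP HaCaT (replicates 1 to 3) and the single one labelled siCTRL HaCaT, chosen by their labels out of 16 in the series. They contained 26229 listed genes, of which 14673 had enough reads to be tested. The siYAP cells received a pool of siRNAs against YAP1 and the siCTRL cells a control siRNA, and none carried an expression vector. All were grown in DMEM with fetal calf serum, transfected on 2 occasions 24 hours apart, and harvested 48 hours after the second transfection. The study asks how integrin signalling controls YAP and TAZ in the skin. Its other libraries are the same knockdown in A431, an epidermoid carcinoma line, and an empty vector or YAP5SA, a constitutively active YAP mutant, in both lines. Every group without YAP depletion or YAP5SA consists of 1 library, so the spread of the HaCaT control could not be measured, and with 3 libraries against 1 the smallest p that an exact permutation test allows is 0.25.

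YAP1 and its paralogue TAZ (gene WWTR1) are transcriptional coactivators that bind DNA through the TEAD factors. The Hippo pathway, in which MST and LATS kinases act with the adaptors SAV1 and MOB1, phosphorylates both proteins and keeps them in the cytoplasm, where angiomotins also bind them. In the epidermis nuclear YAP is a feature of basal keratinocytes that adhere to the basement membrane, and it is associated with proliferation and with restraint of terminal differentiation.

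The siCTRL library held 18115624 estimated counts and the siYAP libraries between 20204492 and 28729899. The siYAP libraries resembled each other closely, with Pearson correlations of log2 CPM, the count scaled to library size, of 0.989 to 0.993 across genes, which are not independent replicates. A typical gene differed by 0.121 to 0.173 on the log2 scale between siYAP libraries, and by 0.258 to 0.284 between siCTRL and a siYAP library. The empty vector HaCaT library stood much further away, 0.654 from siCTRL, and is therefore given as a second level without YAP depletion, not as a replicate of the control. Of the defining markers of other cell types, COL1A2, COL3A1 and PDGFRA (fibroblasts), TYR and OCA2 (melanocytes), KDR and CLDN5 (endothelium) and CD3D and MS4A1 (lymphocytes) were at 0 in all 4 libraries. The summed level of the fibroblast list was 106 CPM in siCTRL and 77.0 to 102 in siYAP, and that of the leukocyte list was 17.5 and 13.0 to 18. The melanocyte sum was 45.5 CPM in siCTRL and 104 to 118 in siYAP and the endothelial sum was 59.7 and 16.7 to 20.4. Other members of these lists were expressed, among them FBLN1 (84.1 CPM in siCTRL and 55.5 to 74.5 in siYAP), DCN (11.4 and 11.3 to 14.2), LUM (9.28 and 6.15 to 7.99) and VWF (7.10 and 3.64 to 5.92), of which DCN and LUM were at 0 with empty vector. The melanocyte and endothelial sums followed a single gene, MITF and CDH5 respectively, described with the individual genes. In such bulk RNA, fewer cells of a type and less RNA per cell cannot be told apart.

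The first question was whether the target was depleted and what happened to its partners. YAP1 mRNA fell 11.5-fold, the TEAD cofactor VGLL1 fell 3.23-fold and TEAD4 fell modestly, whereas the paralogue WWTR1 was not called. YAP1 stood at 254 CPM in siCTRL, at 23.2, 21.6 and 21.8 CPM in the siYAP libraries, and at 423 CPM with empty vector. The siYAP values were tightly grouped and far below both controls, with a log2 fold change of -3.52 (SE 0.45) and an adjusted p of 0.000894 by the edgeR quasi-likelihood test with Benjamini-Hochberg adjustment, which gave every adjusted p below. VGLL1, a Vestigial-like protein that competes with YAP for the same TEAD surface, was at 49.6 CPM in siCTRL and at 17.8, 12.2 and 16 CPM in siYAP (log2 fold change -1.69, SE 0.24, adjusted p 0.0016). Its empty vector level was only 4.33 CPM, so the siYAP libraries lay below siCTRL and above empty vector. TEAD4, one of the DNA-binding partners, went from 10.2 CPM to 6.81, 5.63 and 4.92 CPM (log2 fold change -0.82, SE 0.22, adjusted p 0.0449). WWTR1 was at 81.2 CPM in siCTRL and at 108, 114 and 126 CPM in siYAP, all 3 above siCTRL and the 85.2 CPM of empty vector, but its log2 difference of 0.52 (SE 0.16) had an adjusted p of 0.0809. Of the 9 tested YAP, TAZ, TEAD and VGLL genes, 3 were called lower and 0 higher, where 3.30% and 2.37% of all genes tested were called, and the median log2 fold change was -0.12 beside 0.03 over all. Here and throughout, a gene is called at an adjusted p below 0.05 with a mean log2 CPM above 1.

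**Figure D1:**
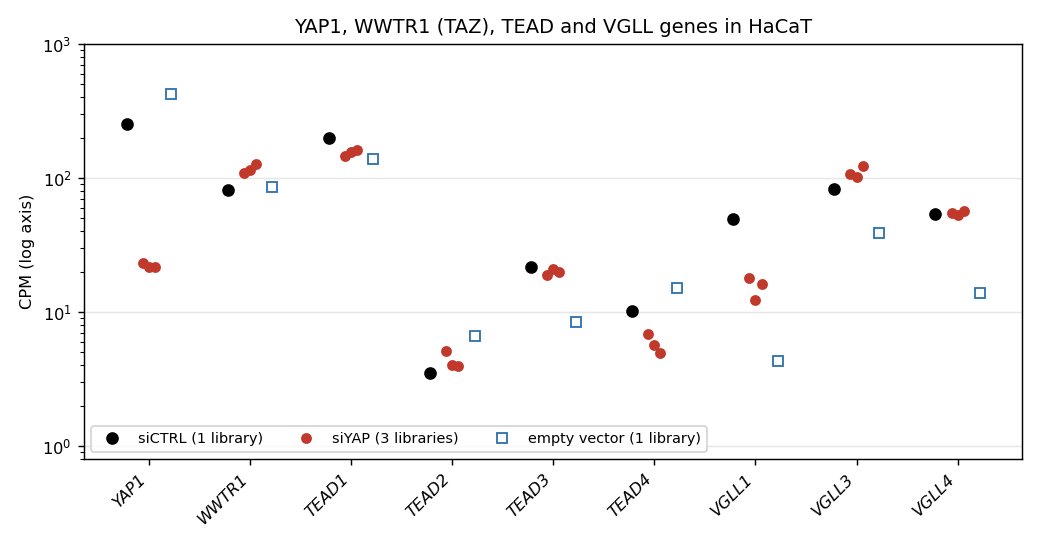
Levels of the tested YAP, TAZ, TEAD and VGLL genes in HaCaT, in CPM on a log axis, with 1 point per library for siCTRL (black), siYAP (red, 3 libraries) and empty vector (open squares). YAP1 is at 21.6 to 23.2 CPM in the siYAP libraries against 254 in siCTRL.

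Within the Hippo pathway few genes were called, and MOB1A, AMOTL2 and WWC1, all known as negative regulators of YAP, were lower. The list held 24 tested genes, of which 3 were called lower and 0 higher beside 3.30% and 2.37% of all genes, with a median of -0.16, and 2 were called without any 1 of the siYAP libraries. MOB1A, the coactivator of LATS kinases, was at 132 CPM in siCTRL and at 64.8, 66.9 and 65.7 CPM in siYAP, a fall of 1.0 on the log2 scale (SE 0.12, adjusted p 0.000569). AMOTL2, an angiomotin that retains YAP outside the nucleus, was at 155 CPM and at 77.4, 70.7 and 78.8 CPM (log2 fold change -1.03, SE 0.18, adjusted p 0.00561). For both genes the siYAP libraries lay below siCTRL and below empty vector. WWC1, the upstream adaptor also called KIBRA, went from 55.0 CPM to 36.3, 36.0 and 38.6 CPM (log2 fold change -0.57, SE 0.15, adjusted p 0.0445).

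Most classical YAP target genes did not pass the test in the depleted cells. Of 33 tested, 3 were called lower (TGFB2, AMOTL2 and FJX1) and 0 higher, beside 3.30% and 2.37% of all genes, and the median was -0.21. TGFB2, a TGF-beta ligand, was at 15.8 CPM in siCTRL and at 4.80, 7.19 and 6.18 CPM in siYAP (log2 fold change -1.39, SE 0.21, adjusted p 0.00239). FJX1, the four-jointed homologue, was at 9.61 CPM and at 2.83, 5.15 and 1.88 CPM (log2 fold change -1.58, SE 0.40, adjusted p 0.0354). TGFB2 with empty vector was at 6.56 CPM, within the siYAP range, whereas FJX1 with empty vector was at 11.2 CPM, above it. CTGF, a secreted matricellular protein and the most used YAP readout, was scarcely expressed, at 0.874 CPM in siCTRL and 0.813, 0.486 and 0.826 CPM in siYAP, so that a fall from this level rests on 10 to 25 counts per siYAP library. CYR61, its close relative, was at 6.44 CPM in siCTRL and at 3.37, 5.97 and 3.83 CPM in siYAP (log2 difference -0.57, SE 0.42, adjusted p 0.497). In HaCaT cells with YAP5SA, 17 of the same 33 genes were called higher and 1 lower, beside 6.99% and 6.64% of all genes. Their median was 0.94, and CTGF and CYR61 were among those called higher with log2 fold changes of 2.98 and 2.81.

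The TEAD consensus half-site was searched in promoters because these factors are the route by which YAP reaches DNA. The letters GGAATG, or CATTCC for the opposite strand, were counted from 250 bases before to 50 bases after each RefSeq gene start on GRCh38.p14. They were present in 12.9% of 396 promoters of genes called lower, in 8.99% of 278 of genes called higher, in 10.9% of 11285 of tested genes and in 14% of all 27305. Among 22 classical targets, a list known for TEAD control and therefore no independent support, 10 promoters held one (45.5%). The windows shown belong to YAP1 itself, to VGLL1 and TGFB2, which fell in siYAP, and to THBS1 (a matricellular thrombospondin) and CTGF, which were not called in siYAP. Capitals mark each match, and a match is a string of letters, not a measured binding site.
YAP1, chr11:102110258-102110317, plus strand: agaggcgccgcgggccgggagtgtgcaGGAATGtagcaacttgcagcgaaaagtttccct
VGLL1, chrX:136532031-136532090, plus strand: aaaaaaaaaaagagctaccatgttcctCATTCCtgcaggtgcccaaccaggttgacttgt
TGFB2, chr1:218345124-218345183, plus strand: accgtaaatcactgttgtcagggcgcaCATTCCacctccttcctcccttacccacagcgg
THBS1, chr15:39581006-39581065, plus strand: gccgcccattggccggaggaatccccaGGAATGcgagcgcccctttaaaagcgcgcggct
CTGF, chr6:131951450-131951568, minus strand: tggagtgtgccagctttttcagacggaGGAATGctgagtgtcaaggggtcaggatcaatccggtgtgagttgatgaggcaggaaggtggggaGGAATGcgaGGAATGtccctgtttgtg
CTGF holds 3 matches in its window and the others 1 each, and the log2 differences in siYAP were -3.52 for YAP1, -1.69 for VGLL1, -1.39 for TGFB2, -0.33 for THBS1 and -0.28 for CTGF. Over all genes, 51 promoters of genes called lower and 25 of genes called higher held a match. Those not shown included ZNF275 (-0.95), ZC3H7B (-0.81), ALG3 (-0.73) and LSM12 (-0.51), all called lower. Promoters with a match also belonged to uncalled genes on both sides of 0. TNNT2 (1.05), NUAK2 (0.69) and PTPN14 (0.50) were above 0, and ANKRD1 (-0.66), LIFR (-0.65) and LATS2 (-0.52) below.

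Over all genes, somewhat more transcripts were called lower than higher in siYAP, although 6867 had a log2 difference below 0 and 7710 above 0. In siYAP 484 genes were called lower (3.30% of those tested) and 348 higher (2.37%), and each of these 832 genes lay on the same side of siCTRL in all 3 siYAP libraries. Being on 1 side in all 3 is in itself common, since 33.4% of tested genes had all 3 libraries below siCTRL and 36.3% all 3 above, as 1 control library shifts every comparison together. Requiring the siYAP libraries to lie beyond the empty vector library as well left 414 of the genes called lower (85.5%) and 200 of those called higher (57.5%). Called genes already lay beyond siCTRL, so they are set beside all genes with 3 libraries on 1 side. Of 4898 such genes below siCTRL 3046 lay below both controls, a smaller share than among the genes called lower. Of 5323 above siCTRL 3389 lay above both, a larger share than among the genes called higher. On the different base of all tested genes, those beyond both controls were 20.8% and 23.1%. The median called fall was -0.81 and the median called rise 1.02 on the log2 scale, and 131 and 177 genes respectively changed by at least 1. With the second control added to the comparison the counts became 2195 lower and 739 higher, and with a model of the HaCaT libraries alone 211 and 138.

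The deepest falls among well-measured genes included those of a collagen-modifying enzyme, a protease inhibitor and a scavenger receptor. PLOD2, the lysyl hydroxylase that prepares collagen for cross-linking, was at 34.3 CPM in siCTRL, at 5.69, 3.79 and 5.05 CPM in siYAP and at 93.4 CPM with empty vector. This 7.09-fold fall had the smallest adjusted p of all genes (log2 fold change -2.82, SE 0.18, adjusted p 1.11e-05). TFPI2, a secreted Kunitz-type inhibitor of serine proteases, was at 21.1 CPM and at 4.53, 2.43 and 4.26 CPM (log2 fold change -2.48, SE 0.44, adjusted p 0.0083). OLR1, a lectin-like receptor for oxidised low-density lipoprotein, was at 33.1 CPM and at 6.50, 9.57 and 5.65 CPM (log2 fold change -2.20, SE 0.24, adjusted p 0.000395). For these 3 genes siYAP lay below both siCTRL and empty vector.

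Other deep falls were of genes at low levels or of a gene that differed strongly between the 2 kinds of control. GBP1, an interferon-inducible guanylate-binding GTPase, was at 5.79 CPM in siCTRL, at 1.08, 0.971 and 1.39 CPM in siYAP and at 43.4 CPM with empty vector (log2 fold change -2.31, SE 0.31, adjusted p 0.00117). ZNF618 fell from 1.31 CPM to 0.155, 0.0486 and 0.462 CPM (log2 fold change -2.42). CDH5, the endothelial VE-cadherin, differed between the controls, with 51.8 CPM in siCTRL, 12.2, 12.1 and 13.6 CPM in siYAP and 0.127 CPM with empty vector (log2 fold change -2.03, SE 0.28, adjusted p 0.00148). Its siYAP libraries were thus below siCTRL and above empty vector, while KDR, TIE1, CLDN5 and ROBO4 of the endothelial list were at 0. KLHL23, listed with 65 counts in siCTRL and 0 in every siYAP library, shares its exons with the read-through transcript PHOSPHO2-KLHL23, which had 0 counts in siCTRL and 162, 82.7 and 139 in siYAP. Summed, the pair stood at 3.55 CPM in siCTRL and at 6.27, 4.03 and 4.59 CPM in siYAP, so no loss of KLHL23 can be separated from the assignment of shared reads. DUXAP10, a pseudogene with near copies, had 9.28 counts in siCTRL and 0 in the siYAP libraries, at least 4.08-fold lower against a floor of 3 counts per siYAP library, and its value is uncertain for the same reason.

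Strong rises among expressed genes included those of the enzyme CA2 and the protease TMPRSS11E, and others are given with their gene lists. CA2, a cytosolic carbonic anhydrase, was at 67.2 CPM in siCTRL and at 524, 680 and 538 CPM in siYAP, 8.64-fold higher (log2 fold change 3.11, SE 0.44, adjusted p 0.00159), with 982 CPM for empty vector. TMPRSS11E, an epithelial transmembrane serine protease, rose from 3.17 CPM to 26.0, 18 and 18.4 CPM (log2 fold change 2.71). LGALS1, the carbohydrate-binding galectin-1, rose from 0.71 CPM to 6.50, 11 and 5.62 CPM, and NOV, a matricellular protein of the same family as CTGF and CYR61, from 0.273 CPM to 2.55, 5.93 and 3.63 CPM. These 10.8-fold and 14.8-fold rises started from 13 and 5 counts in siCTRL, and empty vector was higher than siYAP for both, at 38.3 and 23.1 CPM. TUBA1A rose 12-fold from 8.05 counts, but shares reads with other alpha-tubulin genes and is uncertain.

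Several of the largest rises could be sized only loosely because the control held few reads. ALDH1A1, a retinaldehyde dehydrogenase, had 2 counts in siCTRL and 44 to 71 in siYAP, a ratio of 19.3 with a 95% counting interval of 5.27 to 161. FAM198B had 3 counts in siCTRL and a ratio of 14.8 (4.99 to 72.4), and FAM131B and LINC00704 had 1 count each and a ratio of 21.3 (3.72 to 849). SLCO1B3 (an organic anion transporter), ELOVL4 (a fatty acid elongase) and NGEF (a guanine nucleotide exchange factor) had 0 counts in siCTRL and were at least 4.39-fold, 3.33-fold and 3.15-fold higher, against a floor of 3 counts. Such intervals and floors cover counting error only.

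**Figure D2:**
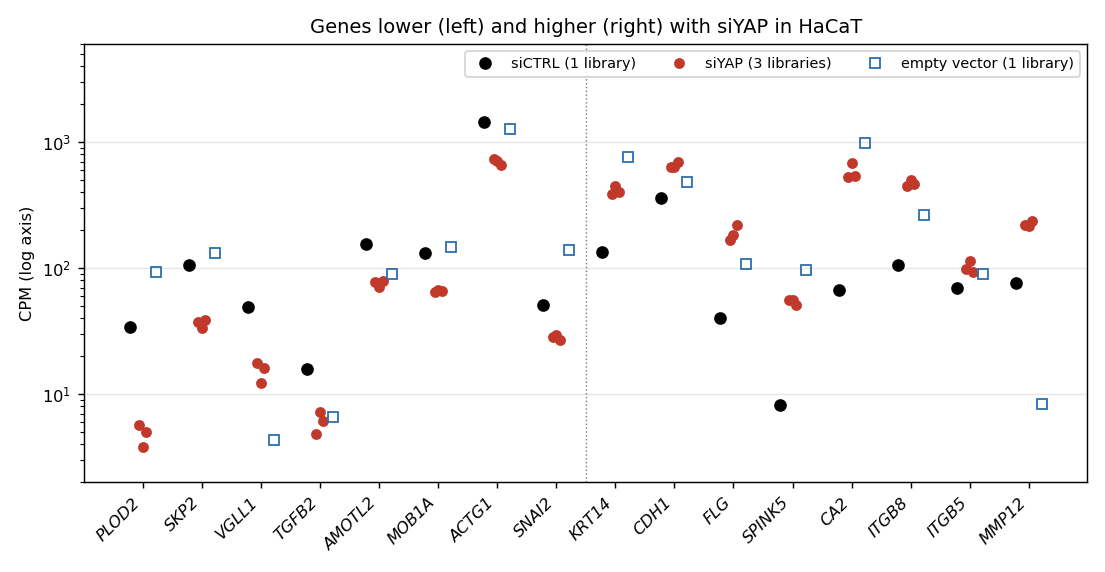
Levels of genes called lower (left) or higher (right) in siYAP, in CPM on a log axis, with 1 point per library for siCTRL (black), siYAP (red, 3 libraries) and empty vector (open squares). The siYAP points of PLOD2 lie at 3.79 to 5.69 CPM against 34.3 in siCTRL, and those of CA2 at 524 to 680 CPM against 67.2.

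Genes for ribosome biogenesis and MYC function lay below the control almost without exception, and a part of them fell by the test. Of 35 tested members, 34 had all 3 siYAP libraries below siCTRL, beside 33.4% of all genes. Of the 35, 10 were called lower and 0 higher beside 3.30% and 2.37% of all genes, and the median was -0.56 beside 0.03. GNL3, the nucleolar GTPase nucleostemin, was at 85.9 CPM in siCTRL and at 44.4, 44.5 and 42.9 CPM in siYAP (log2 fold change -0.97, SE 0.14, adjusted p 0.0016). WDR43, a factor of small-subunit processing, was at 114 CPM and at 57.9, 62.5 and 55.1 CPM (log2 fold change -0.96, SE 0.15, adjusted p 0.00259), and POLR1B, the second largest subunit of RNA polymerase I, was at 76.9 CPM and at 48.9, 46.2 and 42.5 CPM (log2 fold change -0.74, SE 0.13, adjusted p 0.00639). For all 3 genes, siYAP lay below both controls. The other falls were RRS1 (-1.44), a large-subunit assembly factor, DKC1 (-0.89), the pseudouridine synthase of snoRNPs, the RNA helicase DDX21 (-0.85), POLR1C (-0.79), WDR74 (-0.76), WDR12 (-0.71) and the spermine synthase SMS (-0.53), as log2 fold changes. MYC itself was at 108 CPM in siCTRL and at 53.8, 81.9 and 61.2 CPM in siYAP, a log2 difference of -0.72 with an adjusted p of 0.0553. In a model of the HaCaT libraries alone 6 members were called lower, as they were without siYAP replicate 3. The summed biogenesis list was at 7590 CPM with empty vector, 4306 CPM in siCTRL and 2709 to 3203 CPM in siYAP. Among ribosomal proteins, 76 of 79 had a log2 difference below 0, as did 6867 of all 14673 genes, and the median was -0.32. Only RPS13 was called, from 868 CPM to 572, 589 and 506 CPM (log2 fold change -0.64, SE 0.15, adjusted p 0.0247). DESeq2 called 5 members lower, and 25 were lower at an unadjusted p below 0.05. With empty vector RPS13 was at 581 CPM, within the siYAP range, the summed list was at 56295 CPM beside 90544 in siCTRL and 66050 to 77470 in siYAP, and with the second control its median was -0.05. In the proteasome 31 of 34 subunits had a difference below 0, with a median of -0.27, and 0 were called in either direction by edgeR or DESeq2, while 7 were lower at an unadjusted p below 0.05.

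DNA replication genes lay slightly below the control, and a few regulators of the G1/S transition fell. Of 50 replication genes 46 had a log2 difference below 0, as did 6867 of all 14673 genes, with a median of -0.34. Called lower were 4, beside 3.30% of all genes. The count called lower was 2 without siYAP replicate 1, 1 without replicate 3, 2 in the HaCaT libraries alone and 44 with empty vector as a second control. The summed list was at 6494 CPM with empty vector, 1461 CPM in siCTRL and 1140 to 1265 CPM in siYAP. PRIM1, the catalytic primase subunit, was at 18.2 CPM in siCTRL and at 10.3, 10.2 and 9.65 CPM in siYAP (log2 fold change -0.86, SE 0.17, adjusted p 0.00965), and DUT, which keeps uracil out of DNA, was at 38.9 CPM and at 21.9, 23.2 and 21.5 CPM (log2 fold change -0.81, SE 0.18, adjusted p 0.0198). RPA2, of the single-strand binding complex, fell by 0.71 on the log2 scale. PCNA, the sliding clamp, was at 108 CPM in siCTRL and 84.0 to 88.2 CPM in siYAP and was not called (log2 difference -0.32). Of 31 G1/S genes 5 were called lower and 0 higher (median -0.18), beside 3.30% and 2.37% of all genes. Without replicate 1 or replicate 3, 3 were called lower. SKP2, the F-box protein that targets the inhibitor p27 for degradation, was at 106 CPM and at 37.7, 33.8 and 38.8 CPM (log2 fold change -1.53, SE 0.18, adjusted p 0.000463). The other 4 were E2F5 (-1.41), the phosphatase CDC25A (-1.28), the kinase CDK6 (-0.82) and the E2F dimer partner TFDP2 (-0.78). TFDP2 was at 55.1 to 57.5 CPM in siYAP, below the 97.5 CPM of siCTRL but above the 30.4 CPM of empty vector, and its call was lost in the HaCaT libraries alone and with the second control.

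In mitosis genes the 3 siYAP libraries did not behave alike. Of 46 members 41 had a log2 difference below 0, with a median of -0.47, but only 22 were below siCTRL in all 3 libraries. The latter held for 33.4% of all genes. The median member was -0.90 from siCTRL in replicate 1, -0.03 in replicate 2 and -0.79 in replicate 3. Summed over the list, the level was 1536 CPM in siCTRL, 1054, 1593 and 1038 CPM in the siYAP replicates in that order, and 11923 CPM with empty vector. Replicate 2 was therefore near the control and the other 2 siYAP libraries were lower, while empty vector was far above all 4. With all 3 siYAP libraries 3 members were called lower and 1 higher, beside 3.30% and 2.37% of all genes. Without replicate 2 the counts were 22 and 0. CENPA, the centromeric histone, fell from 3.77 CPM to 1.28, 1.89 and 1.49 CPM (log2 fold change -1.29, SE 0.25, adjusted p 0.0107), KIF2C, a microtubule depolymerising kinesin, from 10.5 CPM to 3.79, 6.70 and 3.87 CPM (-1.16), and BUB3, of the spindle checkpoint, by 0.47 on the log2 scale. CDC25B, a phosphatase that activates mitotic CDK1, was the member called higher, from 20.5 CPM to 33.2, 48.8 and 40.5 CPM, with 75.7 CPM for empty vector. Genes of EGFR and ERK signalling also differed between replicates, with medians of -0.05, 0.57 and 0.20 from siCTRL, and 0 of 29 were called by edgeR, while 2 were lower and 9 higher at an unadjusted p below 0.05 and DESeq2 called 1 lower and 2 higher. The ribosome biogenesis list was even across the libraries, at -0.59, -0.52 and -0.73.

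**Figure D3:**
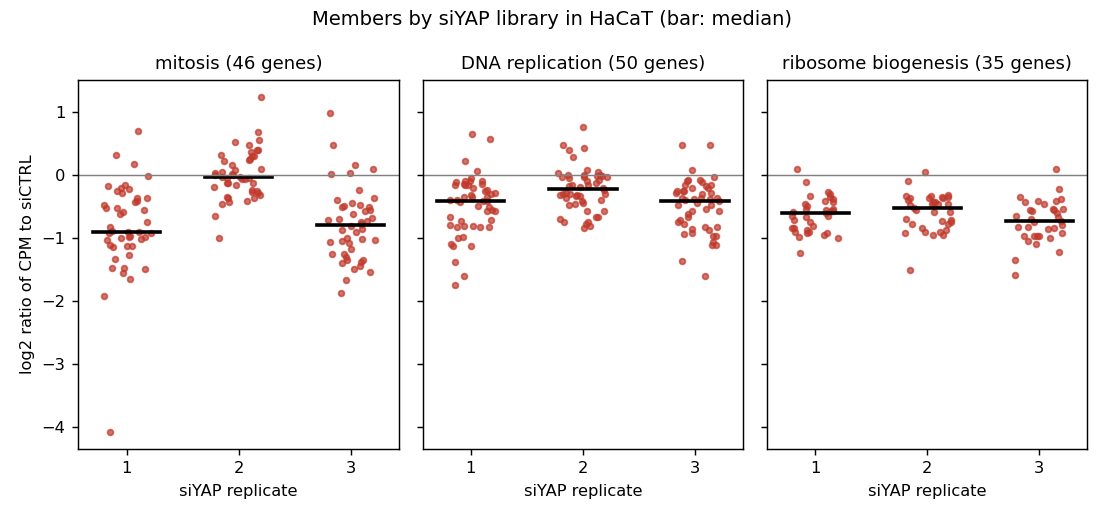
Log2 ratio of CPM to siCTRL (vertical) in each siYAP replicate (horizontal) for members of the mitosis, DNA replication and ribosome biogenesis lists, with 1 point per gene and a bar at the median. The bars of the mitosis genes are at -0.90, -0.03 and -0.79 in replicates 1 to 3, and those of the ribosome biogenesis genes at -0.59, -0.52 and -0.73.

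Several genes of terminal differentiation and the skin barrier rose, among them filaggrin and the inhibitor of kallikreins. Of 48 listed 35 passed the filter on low counts, and among these 5 were called higher and 0 lower, beside 2.37% and 3.30% of all genes. Members that pass the filter only through reads in 1 group are favoured to differ, so the 30 of 35 above 0 and the median of 0.67 (0.45 with members at the floor set to their bound) describe these members only. SPINK5, the epidermal inhibitor of kallikrein proteases, was at 8.19 CPM in siCTRL and at 56.1, 55.8 and 51.3 CPM in siYAP (6.64-fold, log2 fold change 2.73, SE 0.42, adjusted p 0.00239), with 97.4 CPM for empty vector. FLG, filaggrin of the cornified layer, was at 40.2 CPM and at 167, 184 and 221 CPM (log2 fold change 2.24, SE 0.39, adjusted p 0.00561), above the 108 CPM of empty vector. KLK7, a kallikrein that cleaves corneodesmosomes, was at 11.7 CPM and at 23.8, 21.7 and 22.5 CPM (log2 fold change 0.95, SE 0.20, adjusted p 0.0138), and its relatives KLK6 and KLK5 rose by 2.20 and 0.89 on the log2 scale. The summed level of the list went the other way, from 5127 CPM in siCTRL to 4351, 4119 and 4348 CPM in siYAP. Most of that sum came from KRT13 and KRT4, keratins of stratified mucosa, which were not called, KRT13 being at 2235 CPM in siCTRL and at 1334, 1136 and 1286 CPM in siYAP (log2 difference -0.84, adjusted p 0.334). A model of the 4 siRNA libraries alone called 8 members higher and 2 lower.

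Among keratinocyte identity genes, 18 were tested, 2 were called higher and 2 lower, beside 2.37% and 3.30% of all genes, with a median of 0.28. KRT14, the basal keratin, was at 134 CPM in siCTRL, at 386, 445 and 402 CPM in siYAP and at 763 CPM with empty vector (log2 fold change 1.62, SE 0.34, adjusted p 0.0149). CDH1, or E-cadherin, rose from 363 CPM to 631, 636 and 691 CPM (log2 fold change 0.85, SE 0.18, adjusted p 0.0156), while P-cadherin, CDH3, typical of basal cells, fell from 331 CPM to 208, 250 and 211 CPM (log2 fold change -0.57, SE 0.13, adjusted p 0.0201). GRHL2, an epithelial transcription factor, fell by 0.48. Neither fall was called without replicate 1, without replicate 3 or in the HaCaT libraries alone. For the 2 cadherins siYAP lay beyond both controls, in opposite directions, whereas KRT14 in siYAP lay between them.

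Integrins and other genes of adhesion to the basement membrane changed in part. The list had 23 tested members, 3 called higher and 1 lower, beside 2.37% and 3.30% of all genes, and a median of 0.28. ITGB8, whose product pairs with the alpha v subunit and binds latent TGF-beta, was at 105 CPM in siCTRL, at 445, 497 and 462 CPM in siYAP and at 262 CPM with empty vector, a 4.45-fold rise (log2 fold change 2.15, SE 0.24, adjusted p 0.000425). ITGB5, another partner of alpha v, rose from 69.2 CPM to 98.5, 113 and 94.0 CPM (log2 fold change 0.56, SE 0.13, adjusted p 0.0252), and COL7A1, the anchoring fibril collagen, named here after its values were seen, was at 28.7 CPM and at 60.8, 57.0 and 67.3 CPM (log2 fold change 1.10). ITGB2, the beta subunit of leukocyte integrins, fell from 2.29 CPM, or 42.3 counts, to 0.155, 0 and 0.33 CPM (log2 fold change -3.66, SE 0.71, adjusted p 0.0101), and empty vector was equally low at 0.159 CPM. The main integrins of basal keratinocytes were not called, with log2 differences of -0.10 for ITGB1, -0.30 for ITGA6, 0.10 for ITGA3 and 0.33 for ITGB4. Of the 17 genes that the study names and that were listed for this reason, 2 were called, YAP1 and ITGB2.

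**Figure D4:**
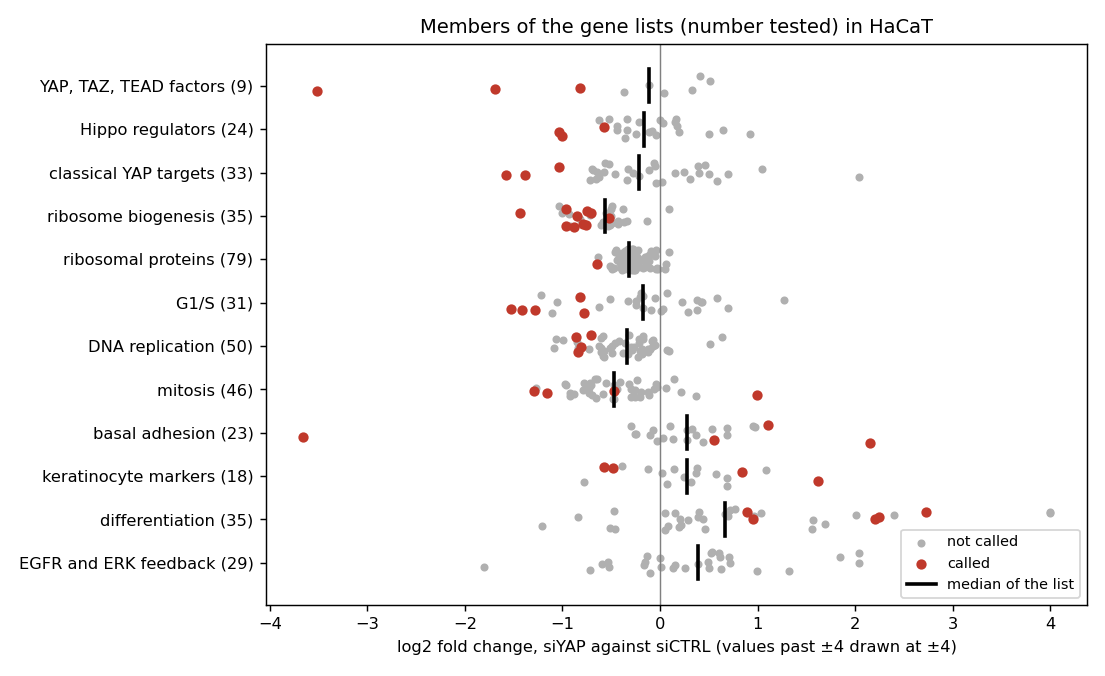
Log2 fold change of siYAP against siCTRL for every tested member of the gene lists, with values past ±4 drawn at ±4, called members in red and a bar at the median of each list. The ribosome biogenesis list has a median of -0.56 and 10 of 35 members called lower.

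The remaining lists had few calls, in shares to be read beside the 3.30% lower and 2.37% higher of all genes. Matrix genes had 2 of 39 called higher, MMP12 and COL16A1, and PLOD2 called lower, with a median of 0.38. MMP12, the metalloelastase, was at 76.4 CPM in siCTRL and at 221, 216 and 237 CPM in siYAP (log2 fold change 1.56, SE 0.23, adjusted p 0.00325), and COL16A1 rose by 1.63. In the actin list ACTG1, cytoplasmic gamma-actin, fell from 1438 CPM to 728, 704 and 654 CPM (log2 fold change -1.05, SE 0.15, adjusted p 0.00163), while the myosin heavy chain MYH10 and the myosin light chain kinase MYLK rose by 1.11 and 1.52. The mesenchymal list had 2 of 26 called lower, among them SNAI2, the repressor Slug, from 51.2 CPM to 28.3, 29.4 and 26.9 CPM (log2 fold change -0.86, SE 0.19, adjusted p 0.0166). Of 41 interferon genes 1 was called lower and 2 higher. IRF1 fell from 94.7 CPM to 47.8, 33.9 and 42.9 CPM (log2 fold change -1.19, SE 0.23, adjusted p 0.0101), and the exonuclease ISG20 and the STAT partner IRF9 rose by 2.21 and 0.62. Both of the latter were higher still with empty vector, at 6.75 and 125 CPM. Of 25 p53 targets, 2 were called lower, the ribonucleotide reductase subunit RRM2B (-1.07) and the nuclease AEN (-1.30). Amino acid stress genes had CEBPB called higher (1.09), the glycolysis and hypoxia list NDRG1 called lower (-0.80) and PFKM higher (0.66), and 0 of 24 cytokine and 0 of 28 cholesterol genes were called by edgeR. At an unadjusted p below 0.05, 3 cytokine genes were lower and 2 higher and 3 cholesterol genes were lower, and DESeq2 called 1 cytokine gene in each direction and 0 cholesterol genes. MITF, listed with the melanocyte markers, rose from 42.4 CPM to 100, 116 and 107 CPM (log2 fold change 1.34, SE 0.26, adjusted p 0.0097), and the melanosomal genes PMEL and MLANA were at 0.874 to 1.94 and 0.793 to 1.32 CPM in siYAP, against 1.64 and 0.874 CPM in siCTRL.

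Of the 69 genes called among those selected for naming, 52 kept their call without any single one of the siYAP HaCaT libraries and 17 lost it at least once. The 17 were TEAD4, WWC1, FJX1, CDH3, DUT, RPA2, KIF2C, CDC25B, RPS13, COL16A1, ISG20, IRF9, PFKM, ZNF618, SLCO1B3, ELOVL4 and TUBA1A. In the model of the HaCaT libraries alone 38 of the 69 kept their call and 31 lost it.

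A majority of the transcripts called lower in siYAP carried a short string in their 3' UTR. The letters TTCTTAA or CTTCTTA, which overlap in 6 bases when they occur joined, were taken from earlier work on these data and are therefore no independent test. They were searched on the sense strand of the 3' UTR of the GENCODE v29 transcript with the longest coding sequence. The string was found in 57.7% of 466 genes called lower, in 29.8% of 336 called higher and in 27% of 11036 tested genes with a UTR of at least 50 bases. Longer UTRs hold more strings, and the medians were 1530 bases for genes called lower, 1673 for those called higher and 1092.5 for all. Within UTRs under 1000 bases the shares were 27%, 4.24% and 8.18%, within 1000 to 2000 bases 64.2%, 30% and 26.5%, and from 2000 bases 82.8%, 50% and 56.7%, in the same order of lower, higher and all. In the joined form of both strings the shares were 16.1%, 3.57% and 4.83%. The share among genes called lower was the highest of the 3 in each length class. With empty vector added as a second control it was 35.5% over all lengths. For YAP5SA against empty vector the string was in 37.0% of 914 genes called lower and 17.5% of 957 called higher. The median UTRs of these were 1319 and 1015 bases. The siRNA sequences were not used here, and the part of the string in the falls was not tested.

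The sites shown lie in the 3' UTR of genes described above as lower, and those of DUT and TFDP2 are of the joined form. The joined form was shown where present, otherwise the first TTCTTAA, and the first CTTCTTA where neither occurred. Coordinates are on GRCh38 and capitals mark the string.
PLOD2, chr3:146070532-146070556, minus strand: gtttgatatTTCTTAAtgtctgctc
TFPI2, chr7:93886801-93886819, minus strand: acaTTCTTAAtatgtcatc
OLR1, chr12:10159386-10159410, minus strand: aaactcatgTTCTTAActttaaaaa
ACTG1, chr17:81510105-81510129, minus strand: atgtattcaTTCTTAAtttatgtaa
MOB1A, chr2:74154941-74154965, minus strand: tcctagaaaTTCTTAAatatataca
DUT, chr15:48342352-48342377, plus strand: aaacagtgtCTTCTTAAaatcaaatg
TFDP2, chr3:141951891-141951916, minus strand: cgagcgctaCTTCTTAAgtacttaag
AMOTL2, chr3:134357479-134357503, minus strand: aagactctgCTTCTTAgcccacatt
PLOD2 holds 3 such sites, MOB1A, DUT and TFDP2 hold 2 each, and the other 4 genes 1 each. Of the ribosome biogenesis genes called lower, 9 had a UTR, with a median of 822 bases, and 2 of these (22.2%) carried the string. The share was 12.5% of all 32 members of that list with a UTR, and 8.18% of all tested genes with UTRs under 1000 bases.

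Raising YAP activity in the same line gave a second set of changes against which the knockdown can be read gene by gene. These comparisons share no library, since YAP5SA was set against empty vector. With YAP5SA 975 genes were called lower (6.64%) and 1026 higher (6.99%). Of the genes lower in siYAP, 49 were called higher with YAP5SA (10.1% of the siYAP falls and 4.78% of the YAP5SA rises, YAP1 included, whose reads with YAP5SA cannot be told apart from those of the introduced gene), and of those higher in siYAP 50 were called lower (14.4% and 5.13%). Movement to the same side occurred too, with 45 genes lower in both (9.30% and 4.62%) and 27 higher in both (7.76% and 2.63%). Of the genes lower in siYAP and higher with YAP5SA, 44 had a UTR and 31.8% of them carried the string described above.

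The genes that went down with siYAP and up with YAP5SA included classical targets and several of the deepest falls. VGLL1 was at 4.33 CPM with empty vector and at 10.6, 11.3 and 13.4 CPM with YAP5SA (log2 fold change 1.44). TGFB2 was at 6.56 CPM and at 26.2, 24.6 and 31.5 CPM (2.06), and AMOTL2 at 89.4 CPM and at 210, 207 and 241 CPM (1.29). TFPI2 was at 16.2 CPM and at 59.5, 148 and 72.3 CPM (2.53), OLR1 at 48.3 CPM and at 169, 216 and 193 CPM (2.0), and ZNF618 rose by 1.76. ITGB2, near 0 in empty vector and siYAP, was at 11.6, 7.66 and 13.4 CPM with YAP5SA (6.06). In each of these genes the 3 YAP5SA libraries lay above the single empty vector library, which is largely built into their choice as genes called higher. PLOD2, by contrast, was not called with YAP5SA (log2 difference -0.24), nor were MOB1A (0.00) and SKP2 (0.51).

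The genes that went up with siYAP and down with YAP5SA included the barrier inhibitor SPINK5, the metalloelastase MMP12 and CA2. MMP12 was at 8.31 CPM with empty vector and at 1.18, 0.545 and 0.714 CPM with YAP5SA (log2 fold change -3.34), and TMPRSS11E fell by 2.22. SPINK5 was at 97.4 CPM and at 39.9, 17.7 and 22.6 CPM (-1.86), CA2 at 982 CPM and at 479, 181 and 380 CPM (-1.50), and ALDH1A1 at 3.09 CPM and at 0.487, 0.0574 and 0.535 CPM (-3.06). FLG, although it rose in siYAP, was also called higher with YAP5SA (1.46). CDH5, which fell in siYAP, was called higher with YAP5SA (2.35), but from 0.127 CPM to only 0.666, 0.316 and 0.994 CPM. All of these levels were far below the 12.1 to 13.6 CPM of CDH5 in siYAP. Of the 35 differentiation genes, 5 were called lower and 1 higher with YAP5SA (median -0.06), beside 6.64% and 6.99% of all genes. Of the 35 ribosome biogenesis genes, 6 were called higher and 0 lower (median 0.28).

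**Figure D5:**
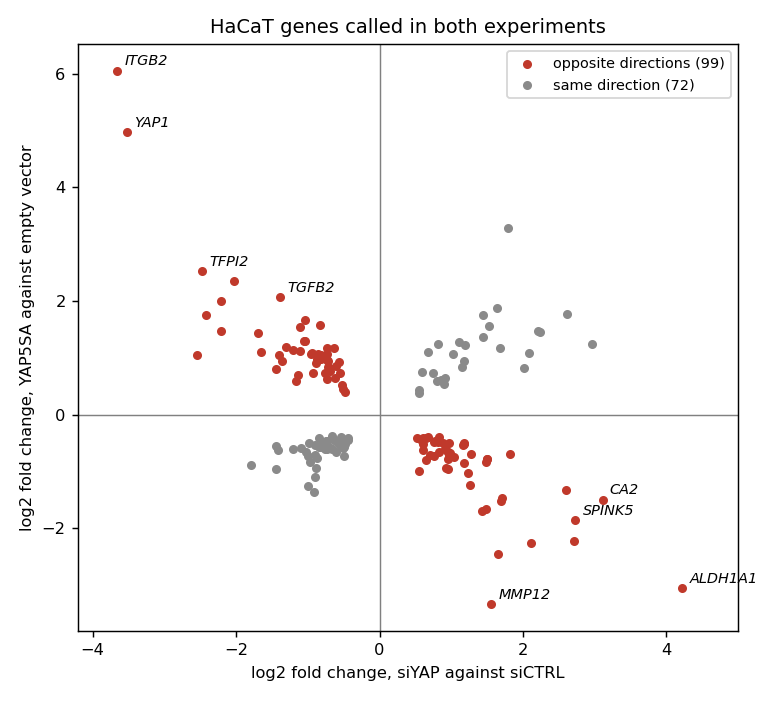
Log2 fold change of siYAP against siCTRL (horizontal axis) and of YAP5SA against empty vector (vertical axis) for genes called in both comparisons in HaCaT, with those moving in opposite directions in red. The genes lower in siYAP and higher with YAP5SA number 49, and those higher in siYAP and lower with YAP5SA number 50.

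The same siRNA treatment in A431 carcinoma cells moved most of the genes called in HaCaT to the same side. A431 had 555 genes called lower (3.78%) and 266 higher (1.81%), each tested against the line's own control library. Of the HaCaT genes called lower, 88.2% had an A431 log2 difference below 0, with a median of -0.41, and 162 were called lower there too. Of those called higher, 83.6% were above 0, with a median of 0.42, and 66 were called. The median A431 log2 difference of all tested genes was 0.03. These genes were chosen for their size in HaCaT, so a smaller median in a second line is built into the choice. PLOD2, SKP2 and ACTG1 fell in both lines, with A431 log2 fold changes of -2.48, -1.30 and -0.97. The list medians differed between the lines, with DNA replication at -0.88 in A431 (28 of 50 called lower) beside -0.34 in HaCaT, and ribosome biogenesis at -0.09 (0 called) beside -0.56, differences that were not tested at the level of the lists.

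A test of the difference in response between the lines called 25 genes (0.170%), of which 18 were higher and 7 lower in HaCaT relative to A431. ITGB8, raised in HaCaT, was at 105 CPM in the A431 control and at 122, 115 and 122 CPM in A431 siYAP, a difference in response of 1.96 on the log2 scale (SE 0.30, adjusted p 0.0321). KLK7 was at 39.8 CPM in the A431 control and at 24.5, 28.4 and 27 CPM in A431 siYAP (difference 1.53, SE 0.26, adjusted p 0.0493). DKK1, a secreted Wnt antagonist named after its values were seen, was at 25.6 CPM in the HaCaT control and 118, 162 and 121 CPM in HaCaT siYAP, but at 86.4 CPM in the A431 control and 95.6, 98.6 and 93.9 CPM in A431 siYAP. The count of such genes lay between 3 and 294 over the alternatives.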

How the data were processed

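Per the labels and the study's methods, the authors trimmed reads, aligned them to hg19 with RefSeq gene models and deposited RSEM estimated counts per gene (expected counts, not normalized), with 1 column per library. The labels give RSEM 1.2.11. The labels and the table hold 1 library per control group, while the series' design text and the study's methods speak of triplicates, so whether a control column stands for 1 culture is not given in the sources used here. Estimated counts were rounded to whole numbers. Genes with a mean of more than 10 counts per library were kept (14673 of 26229; 4970 had 0 counts throughout), scaled by TMM and fitted with edgeR 4.0.16 (R 4.3.3) in 1 model of 8 groups with 8 residual degrees of freedom and a common biological coefficient of variation of 0.174. The lone control was assumed to vary like the replicated groups, and p-values measure the spread between these libraries only. Quasi-likelihood F tests were adjusted by Benjamini-Hochberg over all 14673 genes, and a call needed an adjusted p below 0.05 and a mean log2 CPM above 1. SE is the absolute log2 fold change divided by the square root of F. CPM values use the TMM-scaled library sizes. A count of 3, the floor used for genes at 0, equals 0.164 CPM in siCTRL and 0.0991 to 0.146 CPM in siYAP. Sequences came from GENCODE v29 (GRCh38; 89.0% of tested genes matched by symbol) and RefSeq GRCh38.p14 promoters (76.9% matched); no hg19 coordinates were used. Symbols altered to dates (28) and rows sharing a symbol (4) kept the names in the file.

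Named genes were YAP1 and those the study names, the 10 largest rises and falls among called genes with all 3 siYAP libraries on 1 side of siCTRL, up to 3 called members per list by p (then the best expressed), the 5 largest differences between the lines, and the 5 largest opposite responses to siYAP and YAP5SA in each direction. Other called members of the ribosome biogenesis, replication, G1/S, mitosis, keratinocyte, differentiation and adhesion lists, and MYC, THBS1, COL7A1 and DKK1, were added after their values were seen. The members and lists were chosen with earlier results of these data known. A few genes that these rules select are not reported here. The fit was tested on simulated data. Alternatives were DESeq2 1.42.0, RLE size factors, a likelihood ratio test, other count filters and call rules, the HaCaT or HaCaT siRNA libraries alone, empty vector as a second control, each siYAP library left out (those of A431 were added after seeing the data) and a replicate block. Deviations of same-numbered siYAP libraries of the 2 lines correlated at 0.004, 0.099 and 0.256 (YAP5SA 0.398, 0.163 and 0.162), and the control libraries carry no number, so the libraries were not treated as paired.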

Additional observations from a re-analysis of the deposited data

Results flagged for a closer look

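The 7 genes given here had a siYAP response that differed between HaCaT and A431 in the test of that difference (edgeR quasi-likelihood test with Benjamini-Hochberg adjustment over all tested genes). Values are log2 fold changes in HaCaT minus those in A431, and each line has 1 control library.

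GPR115, an adhesion G protein-coupled receptor, was at 4.86 CPM in the HaCaT control and 15.9, 23.2 and 14.2 CPM in HaCaT siYAP, but at 19.2 CPM in the A431 control and 10.1, 11.8 and 8.93 CPM in A431 siYAP, a difference of 2.77 (SE 0.36, adjusted p 0.0157). HSPB8, a small heat shock protein, moved the opposite way, from 36.7 CPM to 11.5, 12.8 and 10.3 CPM in HaCaT, where empty vector was at 11.3 CPM, within the siYAP range, and from 5.19 CPM to 13.2, 9.65 and 12.5 CPM in A431, a difference of -2.85 (SE 0.42, adjusted p 0.0212). For both genes, the siYAP libraries lay on opposite sides of the control in the 2 lines. The fall of HSPB8 in HaCaT was not called with empty vector as a second control.

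LFNG, the Notch-modifying enzyme Lunatic fringe, was at 5.41 CPM in the HaCaT control and 11.5, 12.6 and 10.0 CPM in HaCaT siYAP, and at 0.392 CPM in the A431 control and 0.042, 0.0345 and 0.0499 CPM in A431 siYAP, a difference of 4.19 (SE 0.66, adjusted p 0.0328) that rests on 8 counts in the A431 control and 2, 1 and 1 in A431 siYAP and is sized only loosely. ITGB8 (1.96) rose in HaCaT and was not called in A431, and KLK7 (1.53) rose in HaCaT while its A431 siYAP libraries lay below their control, with the values given in the report.

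NPIPA7 and SMG1P5 were at 0 counts after rounding in the A431 control and at 5.29 to 5.89 CPM and 8.33 to 13 CPM in A431 siYAP (adjusted p of the difference 0.0157 for both). Against a floor of 3 counts in that control their A431 rise was at least 38.4-fold and 75.7-fold, which puts the difference in response at -5.60 or below for NPIPA7 and at -5.04 or below for SMG1P5. Both have near-identical copies among which reads can be split, so these values are uncertain.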

How the results depend on the processing

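The counts depended on the model and on the lone control. In order, the numbers of genes lower in siYAP, higher in siYAP, different between the lines, lower in siYAP but higher with YAP5SA, and higher in siYAP but lower with YAP5SA were 484, 348, 25, 49 and 50. They became 726, 618, 294, 86 and 110 with DESeq2 and 702, 537, 210, 82 and 83 with the likelihood ratio test. With RLE size factors 13 genes differed between the lines, and without a count filter 32 were higher in siYAP and lower with YAP5SA. The model of the HaCaT libraries alone gave 211 lower and 138 higher, and 15 and 15 for the opposite responses, and that of the 4 siRNA libraries 910 and 900. Once empty vector joined siCTRL as a second control, 2195 were lower and 739 higher (74.8% lower) and 3 differed between the lines. A minimum log2 fold change of 1 left 131 lower and 177 higher (42.5% lower), and 19 and 14 opposite responses. Leaving out 1 siYAP library of either line gave 280 to 437 lower, 238 to 313 higher, 6 to 13 different between the lines, and 28 to 44 and 28 to 40 opposite responses. The fewest falls, 280, came without HaCaT replicate 3 and 307 without replicate 1. The replicate block gave 553 lower, 388 higher and 16 different between the lines. The block also lost the calls of TEAD4, IRF9 and LINC00704. Same-numbered libraries of the 2 lines had correlations of 0.004, 0.099 and 0.256 for siYAP and of 0.398, 0.163 and 0.162 for YAP5SA, and those of siYAP and YAP5SA in HaCaT 0.006, 0.112 and 0.052, so the siYAP numbers were not taken as pairs.

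Calls were shared in part: of 832 genes called, 826 were also called by DESeq2, 788 with the replicate block, 572 with 2 controls and 334 in the HaCaT libraries alone. Among named genes called in either fit, 9 had the opposite sign with 2 controls, namely KRT14 (-0.13), CDC25B (-0.24), ISG20 (-1.81), IRF9 (-0.99), ELOVL4 (-0.38), LINC00704 (-3.27), NOV (-1.56), LGALS1 (-1.36) and GPR115 (-0.31). The cause was not tested. YAP1, MOB1A, AMOTL2, ITGB8, SKP2, PLOD2, MMP12, ACTG1, IRF1, RRM2B, TFPI2, GBP1, OLR1 and TMPRSS11E were among those that kept their call in every alternative that gave them a value. Depth limits genes near 3 counts per library, which is 0.164 CPM in siCTRL.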
